A study of Mus musculus with 4 samples.

Results

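Cells with *Sox10* transcripts were examined in mouse gastruloids at day 11 of culture. *Sox10* encodes a SOX transcription factor that marks migrating neural crest and the glia derived from it. The cells were chosen from the day 11 library by a rule on measured values: at least 2000 UMIs (unique molecular identifiers, each standing for 1 captured transcript), mitochondrial genes under 20% of UMIs, and at least 1 *Sox10* UMI. This gave 59 cells of the 8730 that passed the quality limits (0.676%, exact 95% binomial interval 0.515 to 0.871), and of 29190 such cells over the 4 days of the series. They are called Sox10 cells here, and the other 8671 day 11 cells are called the other cells.

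Gastruloids are aggregates of embryonic stem cells that form parts of the body plan in culture. All 4 libraries came from the wild-type mouse embryonic stem cell line Zx1 and covered days 4 to 6 and day 11 of culture. Each library was a droplet-based single-cell RNA count of at least 8 gastruloids, dissociated and pooled. The protocol gave the Wnt agonist CHIR99021 (Chiron) from day 2 for a day, then bFGF, VEGF and ascorbic acid from day 4 to day 7 with shaking that went on from day 4, and plain N2B27 medium afterwards, so that the gastruloids of days 4 to 6 had received only the steps before their collection. The series thus had 1 line, no untreated control, no map from cells to single gastruloids and 1 library per day, so that no difference could be tested, and every interval given below is an exact 95% interval that covers counting error only.

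The neural crest arises at the border of the neural plate, leaves the neural tube through an epithelial to mesenchymal transition and migrates through the embryo. FOXD3, SOX10, SOX9, TFAP2, PAX3, MSX and SNAI2 are among the transcription factors that specify it. Trunk crest gives rise to sensory and autonomic neurons, to Schwann cells by way of Schwann cell precursors, and to melanocytes, while cranial crest also forms skeletal and connective tissue. Crest cells sense endothelins through EDNRB, neuregulin through ERBB3 with ERBB2, and GDNF family ligands through the GFRA co-receptors with RET.

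Each pair of libraries shared 5 to 23 cell barcodes, and 2 of the 59 barcodes of the Sox10 cells also occurred at day 6. The Sox10 cells held 2308 to 92170 UMIs with a median of 19452, against a median of 12035 in the other cells, and together held 1403193 UMIs. Levels are given below as CPM, here the UMIs of a gene in 1e6 UMIs summed over a group of cells. A feature is called past the fold where its CPM with 10 added was at least 2 times that of the comparison cells and at least 10% of the Sox10 cells held a UMI (higher), or at most 0.5 times (lower). Of 23119 features with a UMI, 0.601% (139) were past the fold higher in Sox10 cells than in the other cells and 1.36% (315) lower. Because the cells were picked on *Sox10* in the same library, these ratios describe the cells picked and support nothing by themselves.

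Transcripts of other cells in a droplet were looked for first. In 6 of the 59 Sox10 cells, genes of a 12-gene cardiomyocyte list took more than 1% of UMIs (highest 4.81%), and these 6 cells held a median of 41745.5 UMIs against 18487 in the remaining 53. Of the other cells, 19.3% lay above 1%. They include the cardiomyocytes that the paper describes at day 11, so that share is no measure of mixed droplets. Doublet scores placed 7 Sox10 cells (11.9%) among the 698 cells with the highest scores, 2 of the 6 included. No cell was removed for this. Without the 6 cells the cardiomyocyte list fell from 0.709% to 0.0366% of the UMIs of Sox10 cells, the *Sox10* level was 274 in place of 227 CPM, and the level of *Foxd3* was 94.9 CPM in place of 76.3. The part of mixed droplets in any other value was not tested.

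The position of the genes on which the description turns is given on the mouse build mm10 (GRCm38), with the GENCODE vM21 gene models. *Sox10* lies at chr15:79154908-79165240 on the minus strand, *Erbb3* at chr10:128567523-128589652 on the minus strand, *Cdh19* at chr1:110888326-110977584 on the minus strand and *Ednrb* at chr14:103814625-103844402 on the minus strand. *Foxd3* (chr4:99656299-99658622, plus strand) and the long intergenic RNA *Gm12688* (chr4:99653607-99654983, minus strand) point away from each other with 1316 bases between their starts. *Dlx1* (chr2:71528113-71533981, plus strand) and *Dlx2* (chr2:71543408-71546754, minus strand) face each other, and 9427 bases lie between their ends.

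Promoter sequence from RefSeq (build GRCm38.p6, 250 bases before to 50 after the annotated start, 300 in all) is shown for *Foxd3*, because that window covers part of the interval between *Foxd3* and *Gm12688*, for *Fabp7* as a gene of the glial list that holds a motif, and for *Phactr1* as the gene with the highest ratio after *Sox10* when 10 CPM are added. Capitals mark the letters ACAAAG or ACAAT on either strand, a core that SOX proteins can bind.
Foxd3, chr4:99656049-99656348 (+): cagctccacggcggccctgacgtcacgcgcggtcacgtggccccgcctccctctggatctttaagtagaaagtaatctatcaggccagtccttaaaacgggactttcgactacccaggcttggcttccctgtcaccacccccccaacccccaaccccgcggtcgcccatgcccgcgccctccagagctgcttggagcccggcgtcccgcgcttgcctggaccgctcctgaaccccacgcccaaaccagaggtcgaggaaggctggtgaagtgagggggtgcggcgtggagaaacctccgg
Fabp7, chr10:57784673-57784972 (+): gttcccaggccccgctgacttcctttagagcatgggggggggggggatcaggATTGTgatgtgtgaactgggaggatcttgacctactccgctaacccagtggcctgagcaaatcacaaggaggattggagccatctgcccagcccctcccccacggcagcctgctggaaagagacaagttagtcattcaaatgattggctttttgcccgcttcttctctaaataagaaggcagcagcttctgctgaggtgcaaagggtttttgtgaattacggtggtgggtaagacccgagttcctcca
Phactr1, chr13:42680549-42680848 (+): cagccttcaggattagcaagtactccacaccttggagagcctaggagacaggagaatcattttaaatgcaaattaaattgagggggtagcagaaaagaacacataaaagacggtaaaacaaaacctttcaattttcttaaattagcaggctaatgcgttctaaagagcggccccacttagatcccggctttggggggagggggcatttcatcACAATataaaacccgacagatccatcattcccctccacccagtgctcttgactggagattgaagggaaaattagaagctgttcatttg
The *Foxd3* window held neither motif, *Fabp7* held the reverse complement of ACAAT and *Phactr1* held ACAAT. Over all 32851 promoters of the table, 42.9% held at least 1 of the motifs. Of the 30 genes of the Schwann cell precursor and glia list, 20 matched the table, with 29 promoters of which 5 (17.2%) held a motif. Of the 20 crest specifiers, 14 matched, with 22 promoters of which 13 (59.1%) held a motif. A match describes letters in a window and is no evidence of binding. *Sox10*, *Erbb3* and *Cdh19* are named without a promoter.

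The name neural crest was checked against *Foxd3*, the second marker of the cells, and against a panel of 10 crest and glial genes that left *Sox10* out (*Foxd3*, *Erbb3*, *Cdh19*, *Gfra3*, *Ngfr*, *Ednrb*, *Tfap2a* and *Tfap2b* among them). *Foxd3* was detected in 40 of the 59 Sox10 cells (67.8%, 54.4 to 79.4), with 0 UMIs in the lowest cell, a median of 1 and 10 in the highest. Among the other cells 0.773% held a *Foxd3* UMI, and in an endothelial set, a cell type that should lack the gene, 0.178% did, at a median depth of 21898 UMIs. The set took 563 cells with at least 3 of *Pecam1*, *Cdh5*, *Kdr*, *Tek* and *Emcn*, 1 of them a Sox10 cell. With every cell thinned to 5000 UMIs (58 Sox10 cells deep enough), the *Foxd3* shares were 29.3% in Sox10 cells, 0.456% in the other cells and 0 in the endothelial set. On average a Sox10 cell held 4.93 of the 10 panel genes and an other cell 0.495. The Sox10 cells thus carried *Foxd3* at a share well above that of the endothelial set, and on average more panel genes than the other cells. Not every panel gene was rare in the endothelial set, where 519 of the 563 cells held *Ednrb*.

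*Sox10* itself ranged from 1 to 20 UMIs per cell with a median of 5, and 318 UMIs were counted in all. Just inside the rule, 7 cells held 1 *Sox10* UMI. None of these 7 held *Foxd3*, while 5 held at least 3 panel genes and 7 held *Ednrb*. Another 7 cells held 2 *Sox10* UMIs, of which 5 held *Foxd3* and all 7 held at least 3 panel genes. The remaining 45 cells held 3 or more, of which 35 held *Foxd3* and all 45 held at least 3 panel genes. The average was 3.43 panel genes at 1 *Sox10* UMI, 4.57 at 2 and 5.22 at 3 or more, at median depths of 13949, 18447 and 20383 UMIs. Thinned to 5000 UMIs, 2 of 6 cells with 1 *Sox10* UMI, 1 of 7 with 2 and 23 of 45 with 3 or more held at least 3 panel genes. These cells, thinned at random 1 time, were too few to rank those at 1 UMI against those at 2.

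Cells just outside the rule were those with no *Sox10* UMI but several panel genes. Of 106 cells with 3 panel genes, 6 (5.66%) were Sox10 cells, of 33 cells with 4 panel genes 15 (45.5%), and of 21 with 5 panel genes 16 (76.2%). At 5 or more panel genes, 36 of 42 cells (85.7%, 71.5 to 94.6) held *Sox10*, and 6 did not. Among these 6, a cell of 14676 UMIs held 8 panel genes, with 15 *Ednrb*, 5 *Gfra3*, 3 *Foxd3*, 3 *Cdh19* and 2 *Erbb3* UMIs and also 11 *Phactr1* and 18 *Lmo4* UMIs. The other 5 held 5 panel genes each, at 25238 to 56836 UMIs. At the lower end, 2 of the Sox10 cells held only 1 panel gene. Both had a single *Sox10* UMI, and they included the cell with the highest sum over an endothelial list (3138 CPM) and the cell with the highest cardiomyocyte share (4.81%). Thinned to 5000 UMIs, 30 of 58 Sox10 cells (51.7%) kept a *Sox10* UMI, so detection of *Sox10* depended on depth.

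**Figure D1:**
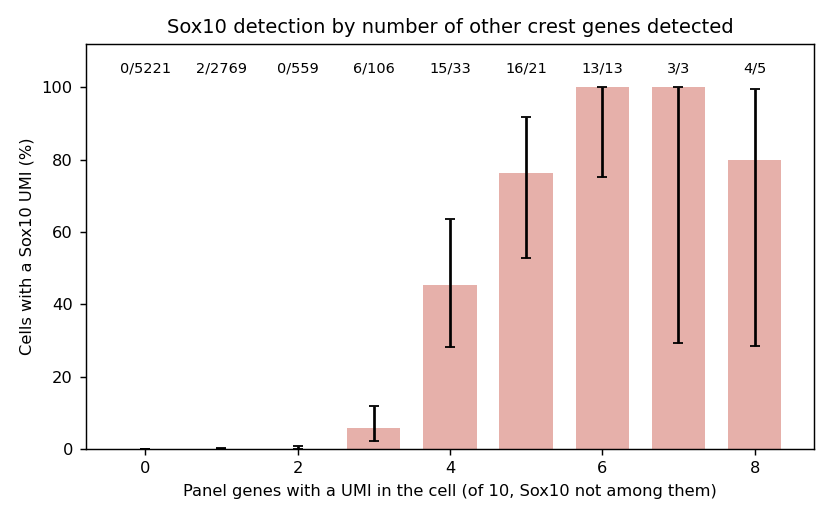
Percentage of day 11 cells with a *Sox10* UMI (y axis) at each number of panel genes detected in the cell (x axis, 10 genes without *Sox10*). Bars give the share, lines the exact 95% binomial interval, and the text above each bar gives Sox10 cells over all cells, from 0 of 5221 cells with no panel gene to 13 of 13 with 6.

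Of the 20 crest specifiers listed, 5 were past the fold higher in Sox10 cells and 2 lower, against 0.601% and 1.36% of all features, and the median ratio with 10 CPM added was 1.02 over the list against 0.997 over all features. *Sox10* is 1 of the 5 by the rule. *Foxd3*, a forkhead factor that keeps crest cells undifferentiated, was at 76.3 CPM (62.5 to 92.1) against 0.987, a ratio of 77.2 (59.6 to 99.8). *Lmo4*, a LIM-only partner of crest transcription factors, was at 685 against 115 CPM and was detected in 57 of 59 cells with a median of 15 and a highest value of 52 UMIs. *Tfap2a*, an early crest factor, was at 36.4 against 4.72 CPM in 30 cells, and *Sox5*, a SOX factor that acts alongside SOX9 and SOX10, at 49.2 against 13.2 CPM in 38 cells.

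The 2 lower specifiers were *Snai2* and *Twist1*. *Snai2*, a zinc-finger repressor that drives delamination, was at 2.85 CPM in Sox10 cells (4 cells with 1 UMI each) against 32.3 in the other cells, and *Twist1*, a bHLH factor of mesenchyme, at 15.7 (9 cells) against 105 CPM. Neither fold limit was passed by *Sox9* (30.6 against 36.2 CPM), *Pax3* (38.5 against 29.8), *Tfap2b* (10.7 against 10.6), *Ets1* (50.6 against 61.3), *Snai1* (9.26 against 11.8), *Mycn* (24.2 against 10.3) and *Sox8* (4.99 against 1.80). Some of these levels rested on few cells. A single cell, the deepest with 92170 UMIs and 1 of the 6 with cardiomyocyte UMIs, held 23 of the 54 *Pax3* UMIs and 25 of the 31 UMIs of *Zic1*, a neural plate border factor, while 21 of 22 *Msx1* UMIs and 12 of 12 *Wnt1* UMIs lay in another single cell. The levels of *Zic1*, *Msx1* and *Wnt1* thus rested mostly on 1 cell each, whereas *Pax3* was still at 23.6 CPM without the deepest cell.

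**Figure D2:**
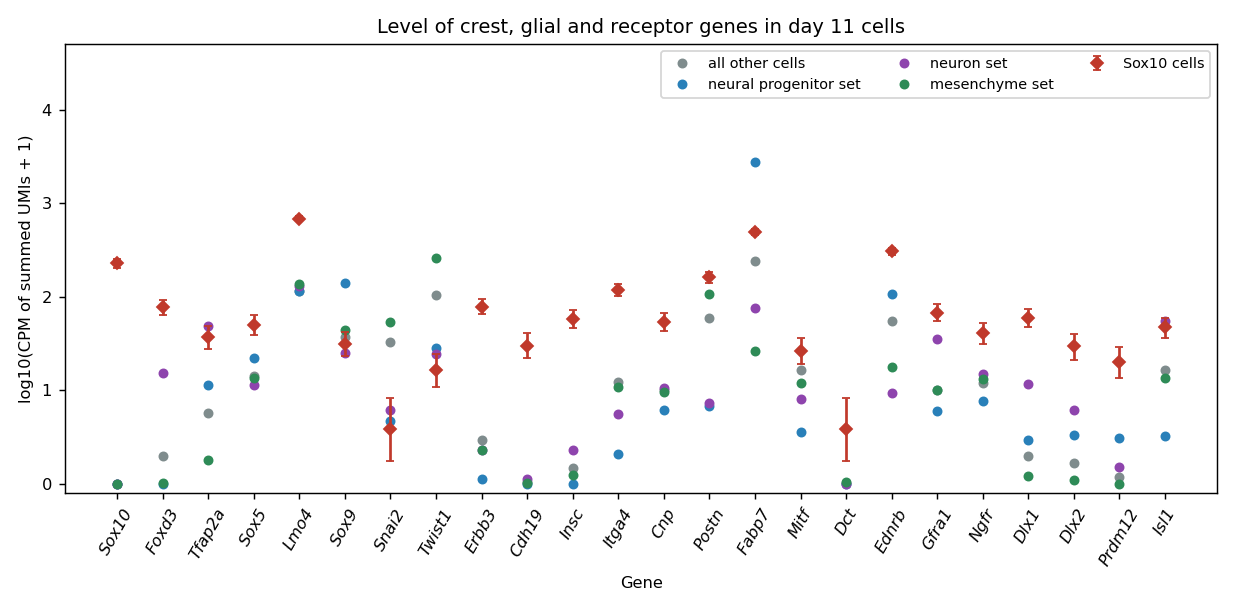
Level of crest, glial, receptor, ectomesenchyme and sensory genes (x axis) as log10 of CPM plus 1 (y axis) in Sox10 cells (red diamonds with exact 95% Poisson intervals) and in the other cells, neural progenitor, neuron and mesenchyme sets (dots). *Cdh19*, *Insc* and *Itga4* stand well above every other group, whereas *Snai2* and *Twist1* are highest in the mesenchyme set, which was chosen with *Twist1*, and *Fabp7* in the neural progenitor set.

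Genes of the Schwann cell precursor and of glia formed the largest group of higher genes among the lists. Of 30 genes, 13 were past the fold higher and 1 lower, against 0.601% and 1.36% of all features. The median ratio with 10 CPM added was 1.44 over the list against 0.997 over all features. The summed level was 1594 CPM against 739 in the other cells. *Erbb3*, the neuregulin receptor on which Schwann cell precursors depend, was detected in 48 cells with a median of 1 and a highest value of 7 UMIs, at 77.7 against 1.93 CPM, a ratio of 40.2 (31.9 to 50.3). *Cdh19*, a cadherin of early nerve glia, had the narrowest distribution. It was found in 33 day 11 cells, of which 28 (84.8%) were Sox10 cells, at 29.2 against 0.0477 CPM.

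*Insc*, an adaptor of the spindle orientation complex, was at 57.0 against 0.504 CPM in 41 cells, a ratio of 113 (81.4 to 157), and 46.6% of the day 11 cells that held it were Sox10 cells. *Itga4*, an integrin subunit used by migrating crest, was at 118 against 11.3 CPM in 46 cells. *Postn*, the matrix protein periostin, was at 160 against 58.8 CPM in 52 cells. *Kcna1*, a voltage-gated potassium channel subunit, was at 24.9 against 0.129 CPM but in 13 cells. Also higher in the list were *Cnp* (53.5 against 9.19 CPM), *Ptprz1* (42.1 against 8.01), *Ngfr* (39.9 against 11.0), *Ttyh1* (32.8 against 6.99), *Cmtm5* (14.3 against 0.327) and *Fabp7*.

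*Fabp7*, a lipid-binding protein of radial glia and Schwann cell precursors, was detected in 38 Sox10 cells at 497 against 243 CPM. The deepest cell held 254 of its 697 UMIs, and without that cell the level was 338 CPM, which is within 2 times that of the other cells. The gene was higher still in the neural progenitor set (2772 CPM), and this alone brought the summed glial list to 3107 CPM there. Genes of myelin and of later Schwann cells were close to the floor. *S100b* was detected in 4 cells, *Gjc3* and *Dhh* in 3 each, *Mbp* in 2 and *Egr2* in 1, and *Mal* and *Sostdc1* in none, where a count of 0, taken as up to 3 of the 59 cells, allows a share of up to 5.08% with a UMI. *Pmp22*, a myelin protein that many tissues share, was lower (8.55 against 60.1 CPM).

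Receptors followed. Of 31 receptors in the feature list, 6 were past the fold higher and none lower, against 0.601% and 1.36% of all features. *Ednrb* was detected in 58 of 59 Sox10 cells, with a median of 6 and a highest value of 26 UMIs, at 305 against 54.5 CPM, a ratio of 5.60 (5.07 to 6.17). It is not a gene of the crest alone: 92.2% of the cells of the endothelial set and 20.6% of the other cells also held it. The neurturin and GDNF co-receptors *Gfra2* and *Gfra1* were at 20.7 against 4.56 CPM (21 cells) and 67.0 against 9.23 CPM (35 cells), whereas their signalling partner *Ret* had 1 UMI in 1 cell. *Notch1* was at 69.1 against 29.2 CPM in 43 cells, and *Erbb3* and *Ngfr*, the neurotrophin receptor of crest and glia, are given above. *Erbb2*, the partner of ERBB3, was at 17.1 against 13.4 CPM, and *Kit*, the melanoblast receptor, at 4.99 against 13.4 CPM.

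Of 26 ligands, none was past the fold higher in Sox10 cells and 24 did not pass it in either direction. The 2 lower ligands, against 1.36% of all features, were the chemokine *Cxcl12* (9.26 against 49.8 CPM) and the axon repellent *Sema3a* (7.13 against 28.5 CPM). Of the sets compared, both were highest in the mesenchyme set, at 71.9 and 52.2 CPM. *Edn3*, the EDNRB ligand, was at 2.14 CPM in Sox10 cells and 8.72 in the mesenchyme set. *Edn1* was at 0 in Sox10 cells and 8.11 CPM in the endothelial set. *Nrg1*, which encodes neuregulin, had 1 UMI in Sox10 cells (0.713 CPM), against 7.97 in the neuron set and 6.51 in the mesenchyme set. *Edn1*, *Edn3* and *Nrg1* were thus lower in Sox10 cells than in at least 1 of the sets named. *Nrg2* went the other way, at 2.14 against 1.17 CPM in the other cells. Receptor transcripts were not confined to Sox10 cells: *Ednrb* had 428 UMIs there and 8001 in the other cells, and *Erbb3* 109 and 284.

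Adhesion genes were mixed, with 5 of 24 past the fold higher and 6 lower, against 0.601% and 1.36% of all features. *Cdh6*, a cadherin of premigratory and migrating crest, was at 86.9 against 10.7 CPM in 39 cells. *Cadm1*, an immunoglobulin adhesion molecule, was at 130 against 37.0 CPM, and *Zeb2*, a repressor needed for crest formation, at 359 against 150 CPM in 57 cells. *Cdh11*, a mesenchymal cadherin, was at 22.1 against 96.0 CPM, *Fn1* (fibronectin) at 41.3 against 131 CPM and *Epcam* at 0 against 14.7 CPM. *Cdh2* (N-cadherin) was at 96.9 against 103 CPM, and *Vim* (vimentin) was detected in all 59 cells at 1504 against 1604 CPM.

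Genes of crest derivatives other than glia were sparse. In the melanocyte list none of 14 genes was past the fold in either direction. *Mitf*, the master factor of pigment cells, was at 25.7 against 15.6 CPM in 14 cells. The 6 cells with over 1% cardiomyocyte UMIs held 18 *Mitf* UMIs, and in the other 53 Sox10 cells it was at 16.6 CPM. Over all 59 cells *Dct*, an early melanoblast enzyme, had 4 UMIs in 4 cells (2.85 against 0.0409 CPM). *Tyr*, *Tyrp1*, *Mlana*, *Slc45a2*, *Gpr143*, *Oca2*, *Trpm1* and *Gpnmb* were at 0. In the autonomic and chromaffin list none of 16 genes was higher. Only *Hand2* was lower (16.4 against 62.0 CPM), against 1.36% of all features. *Phox2a*, *Dbh* and *Slc18a1* were at 0, and *Th* had 0.713 CPM.

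In the sensory list 2 of 16 genes were past the fold higher, against 0.601% of all features. *Prdm12*, a regulator of pain-sensing neurons and their precursors, was detected in 14 cells with at most 5 UMIs, at 19.2 against 0.204 CPM, a ratio of 94.2 (53.9 to 164). *Isl1*, a LIM factor of sensory and motor neurons and of heart progenitors, was at 46.3 against 15.5 CPM in 10 cells. Only 4 cells held both. *Neurog1*, a bHLH factor that starts sensory neurogenesis, was at 11.4 against 2.98 CPM in 4 cells. A single cell of 15796 UMIs held 18 *Isl1*, 9 *Neurog1* and 4 *Prdm12* UMIs, and had the highest sum of the sensory list (2406 CPM). *Isl2* and *Pou4f2* were at 0, and *Prph*, which mature peripheral neurons make, had 0.713 CPM.

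The ectomesenchyme list of 16 genes was split, with 2 past the fold higher and 6 lower, against 0.601% and 1.36% of all features. *Dlx1* and *Dlx2*, homeobox genes of the pharyngeal crest that forebrain neurons also use, were past the fold higher, at 58.4 against 0.974 CPM (37 cells) and 28.5 against 0.695 CPM (26 cells), and 23 cells held both. Their relatives *Dlx5* and *Dlx6* were at 0. The other 6 called genes of the list were lower, namely *Prrx1* (15.7 against 110 CPM), *Prrx2* (17.8 against 65.7), *Pdgfra* (10.7 against 42.5), *Col1a1* (25.7 against 135), *Col1a2* (17.8 against 154) and *Col3a1* (73.4 against 391). *Dlx1as*, annotated on the opposite strand, overlaps *Dlx1*, and whether counting used the strand is not given in the sources used here. Of the 121 day 11 cells with *Dlx1*, 37 were Sox10 cells and 37 belonged to the neuron set.

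Markers of neighbouring cell types were checked across their whole lists. No gene of the neural progenitor list (12 genes), oligodendrocyte lineage list (10) or otic list (10 in the feature list) was past the fold in either direction. *Sox2* was at 86.2 against 52.4 CPM in 33 cells, *Nes* at 104 against 68.5 CPM in 45 cells, *Pax6* was detected in 1 cell and *Sox1*, *Olig1* and *Olig2* in none. In the neuron list 1 of 12 genes was higher, against 0.601% of all features. It was *Gap43*, a growth-associated membrane protein (270 against 66.2 CPM, 36 cells). No gene was higher in the lists for endothelium (8 of 10 lower), haematopoietic cells (6 of 10), endoderm (6 of 10), fibroblasts and mesenchyme (8 of 10), cardiomyocytes (4 of 12) and skeletal myoblasts (3 of 12). Of all features, 1.36% were lower.

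Over all features, the 20 highest ratios against the other cells included *Sox10*, *Foxd3*, *Erbb3*, *Insc*, *Dlx1*, *Itga4*, *Lmo4*, *Ednrb* and *Cdh6*, given above, and the genes that follow. *Phactr1*, a regulator of actin and of protein phosphatase 1, was at 190 against 4.54 CPM in 47 cells, a ratio of 41.9 (36.2 to 48.4). *Crabp2*, a retinoic acid binding protein, was at 523 against 80.3 CPM in 52 cells. *Metrn*, the secreted factor meteorin that acts on glia, was at 331 against 49.5 CPM in 57 cells, and *Egfl8*, an EGF-like protein, at 49.2 against 0.933 CPM in 27. *Npy*, the neuropeptide Y gene, was at 74.1 against 3.73 CPM but in only 20 cells. *Cd200*, a membrane glycoprotein, was at 63.4 against 2.44 CPM, *Ass1*, an enzyme of arginine synthesis, at 74.1 against 4.60, *Arhgef26*, a guanine nucleotide exchange factor, at 94.8 against 8.12, and *Igdcc3*, an immunoglobulin family protein, at 93.4 against 12.9 CPM.

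*Gm12688*, the divergent neighbour of *Foxd3*, was also among these 20. It was at 46.3 against 1.27 CPM, a ratio of 36.4 (27.0 to 48.5), and was detected in 33 Sox10 cells, 28 of which also held *Foxd3*. The same neighbours were found together elsewhere: of 67 other cells with *Foxd3* and 55 with *Gm12688*, 40 held both. Of all 107 day 11 cells with *Foxd3*, 40 were Sox10 cells and 48 belonged to the neuron set, while none of the 422 cells of the neural progenitor set held it, which allows a share of up to 0.711% by the same limit of 3 cells. More cells of the neuron set than Sox10 cells thus held *Foxd3*, at a lower summed level (14.5 against 76.3 CPM).

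The 10 lowest ratios belonged to genes of endoderm, blood, endothelium, muscle and connective tissue. *Afp* and *Apoa2*, made by visceral endoderm and liver, were at 0 against 120 and 62.4 CPM, and *Ttr* at 0.713 against 55.1 CPM. *Fcer1g* of myeloid cells and *Gmfg* of blood cells were at 0 against 49.2 and 42.7 CPM, and *Fabp4*, found in endothelium and fat cells, at 0.713 against 71.9 CPM. *Mylpf* of fast skeletal muscle was at 7.13 against 97.3 CPM and *Myl2* of ventricular muscle at 64.9 against 542 CPM. *Col1a2* and the kinase *Nrk* were at 17.8 against 154 and 10.7 against 107 CPM.

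Against 3 sets of day 11 cells without *Sox10*, chosen by other genes, different parts of the profile stood out. The neural progenitor set (422 cells) held at least 2 of *Sox1*, *Sox2*, *Sox3*, *Pax6* and *Hes5*, the neuron set (623 cells) at least 2 of *Elavl3*, *Elavl4*, *Stmn2* and *Stmn3*, and the mesenchyme set (2545 cells) both *Prrx1* and *Twist1*. Higher features made up 1.28% of all features against progenitors, 2.05% against neurons and 0.869% against mesenchyme, and lower features 0.991%, 3.24% and 1.58%. Among the glial list, 12, 15 and 12 of 30 genes were higher. Against progenitors, the highest ratio with 10 CPM added after *Sox10* was that of *Phactr1* (0.835 CPM there), and the 8 highest also held *Itga4* (1.11 CPM there), *Spon1*, an extracellular guidance protein (197 against 8.77 CPM), and *Crabp1* (257 against 16.6 CPM). Against neurons, *Ednrb* (305 against 8.36 CPM) stood beside genes of dividing cells, the histone *Hist1h1b* (1081 against 73.2 CPM) and the PCNA partner *Pclaf* (425 against 39.9 CPM). Against mesenchyme, *Fabp7* (25.6 CPM there), *Phactr1* (4.10 CPM there) and *Ednrb* were among the 8 highest, together with *Ina* and *Rtn1*, which came from 10 and 9 cells.

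The Sox10 cells differed among themselves in neuronal genes, among others. Split at 5 *Gap43* UMIs, a limit chosen after the values were seen, 24 cells lay at or above (median 21313.5 UMIs) and 35 below (median 18054). Their *Sox10* levels were alike, 230 and 224 CPM, with intervals of 195 to 270 and 191 to 260. In the *Gap43*-rich cells *Npy* was at 121 against 33.3 CPM, *Gfra1* at 101 against 37.3, *Prdm12* at 35.3 against 5.32 and *Tfap2b* at 19.9 against 2.66 CPM. In the *Gap43*-poor cells *Dlx1* was at 78.5 against 35.3 CPM, *Lmo4* at 834 against 513 and *Ngfr* at 50.6 against 27.6 CPM. Cardiomyocyte and cell cycle transcripts moved with the same split: in the *Gap43*-poor cells *Tnnt2* was at 1379 against 322 CPM, *Myl7* at 4414 against 2026 and *Top2a* at 415 against 244 CPM, and their part in the other differences was not tested. *Fabp7* was detected in 21 of the 24 *Gap43*-rich and 17 of the 35 *Gap43*-poor cells. Across the 59 cells Spearman's rank correlation was 0.65 for *Gap43* and *Fabp7*, 0.44 for *Gap43* and *Npy*, 0.48 for *Dlx1* and *Dlx2*, and -0.37 for *Dlx1* and *Gap43*, all over cells of 1 library that differ in depth.

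Transcripts of the neuronal genes *Stmn2*, *Tubb3* and *Ina* lay mostly in 3 of these cells. Of 199 *Stmn2* UMIs, 194 lay in 3 cells with 58, 78 and 58 UMIs, which held 10, 4 and 2 *Sox10* UMIs at total depths of 40072, 73085 and 25554. *Tubb3* and *Ina* followed, with 118 of 121 and 131 of 145 UMIs in the same 3 cells. In these 3 cells *Sox10* was at 115 CPM, *Foxd3* at 14.4 CPM and *Itga4* was at 0. In the other 56 cells *Stmn2* was at 3.95 CPM. These 3 cells held crest and neuronal transcripts together, and whether each was 1 cell was not tested.

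**Figure D3:**
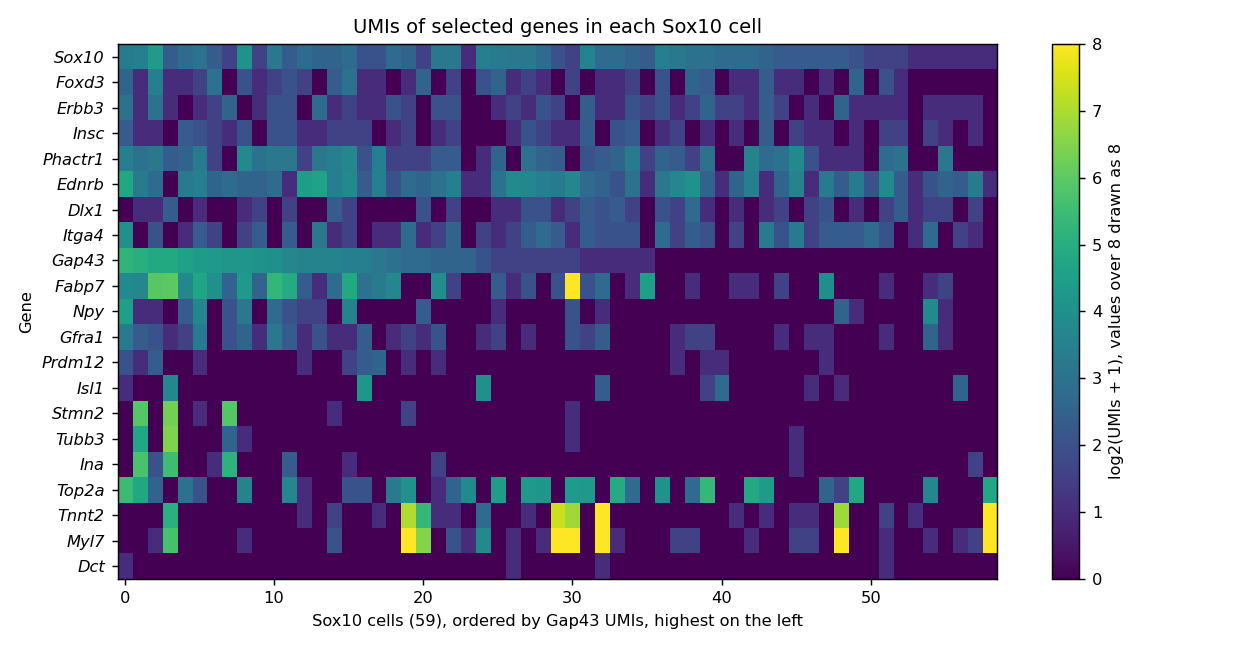
UMIs of selected genes (rows) in each of the 59 Sox10 cells (columns, ordered by *Gap43* UMIs with the highest on the left), as log2 of UMIs plus 1 with values over 8 drawn as 8. *Sox10* and *Ednrb* are spread over nearly all columns, *Fabp7* and *Npy* lean to the left, *Stmn2* is bright in 3 columns and *Myl7* in a handful, and *Dct* appears as single UMIs.

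*Hox* genes, which record position along the body axis, reached to paralogue group 9 and 10 in the Sox10 cells. Of 39 genes, 5 were past the fold higher than in the other cells, against 0.601% of all features. These were *Hoxb7* (89.8 against 30.9 CPM), *Hoxb8* (104 against 29.0), *Hoxb9* (154 against 50.9), *Hoxa9* (105 against 46.9) and *Hoxd9* (40.6 against 15.1). Summed by paralogue group, group 9 stood at 423 CPM (389 to 458) in 54 cells, group 8 at 170, group 10 at 87.7 in 27 cells, and groups 11 and 12 at 0. Group 9 was at 170 CPM in the other cells, 488 in the neural progenitor set and 1271 in the neuron set, while group 10 was at 63.7, 243 and 228 CPM. The most posterior group detected in a cell was group 9 in 27 cells, group 10 in 26, group 8 in 2, group 3 in 1 and group 13 in 1, and 2 cells held no *Hox* UMI. The Sox10 cells thus held *Hox* transcripts up to groups 9 and 10, with less of group 10 than the neural progenitor set.

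**Figure D4:**
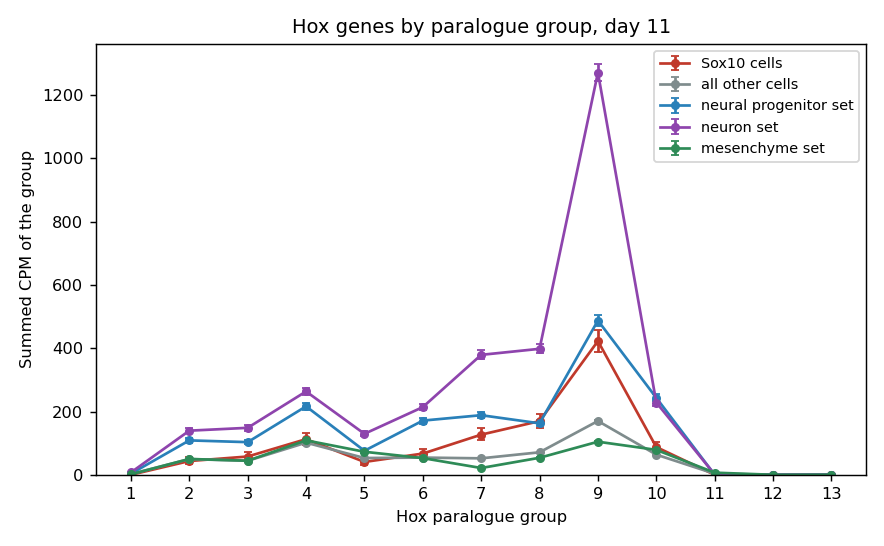
Summed CPM (y axis) of the *Hox* genes of each paralogue group (x axis, 1 to 13) in Sox10 cells and 4 comparison groups at day 11, with exact 95% Poisson intervals. Every group of cells peaks at paralogue 9 except the mesenchyme set, and the Sox10 cells (423 CPM) lie near the neural progenitor set (488) and under the neuron set (1271).

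Genes of dividing cells were counted as transcripts, not as phases. The S phase list summed to 3089 CPM (2997 to 3182) in Sox10 cells, 1894 in the other cells, 4208 in the neural progenitor set and 918 in the neuron set. The G2 and M list summed to 7303, 5032, 11155 and 3200 CPM in the same order. With all cells thinned to 5000 UMIs, *Mki67* was detected in 39.7% of Sox10 cells (27.0 to 53.4), 17.1% of the other cells, 43.3% of progenitors and 3.67% of neurons. *Top2a* was detected in 44.8%, 22.0%, 53.5% and 3.83%. The Sox10 cells therefore lay between the other cells and the neural progenitors, well away from the neurons. Past the fold was 1 of 43 S phase genes (*Chaf1b*, higher) and none of 54 G2 and M genes, against 0.601% of all features higher.

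The same rule was applied to the earlier libraries, where day and library cannot be told apart. It found 23 of 7202 cells at day 4 (0.319%), 42 of 7408 at day 5 (0.567%) and 40 of 5850 at day 6 (0.684%). At day 4 every such cell held a single *Sox10* UMI, none held *Foxd3*, and they held on average 0.261 panel genes against 0.397 in the rest of that library. At day 5, 3 of 42 held 2 UMIs and 1 held *Foxd3*, with 0.333 panel genes against 0.338. At day 6, 24 of 40 held at least 2 UMIs (highest 13), 20 held *Foxd3*, and the average was 4.08 panel genes against 0.601. Cells with *Sox10* therefore carried further crest genes at days 6 and 11, while at days 4 and 5 they could not be told from the background by these genes.

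The Sox10 cells of day 6 (14726 to 186730 UMIs, median 34780) were set beside those of day 11 after their values had been seen. Of 22844 features with a UMI at day 6, 0.14% (32) were past the fold higher than in the remaining day 6 cells and 0.972% (222) lower. Of the 32 higher features, 17 were also among the 139 of day 11 (53.1% of the day 6 and 12.2% of the day 11 features), and 11 of the 20 leading day 11 genes were higher at day 6. Of the crest specifiers 7 of 20 were higher at day 6, namely *Sox10*, *Foxd3*, *Tfap2a*, *Tfap2b*, *Pax3*, *Msx2* and *Lmo4*, and of the glial list 2 of 30, *Erbb3* among them. The summed glial list was at 339 CPM in Sox10 cells at day 6 and 1594 at day 11, and the summed crest specifiers at 1080 and 1323 CPM. In the remaining cells the glial list summed to 187 CPM at day 6 and 739 at day 11. The crest specifiers summed to 519 and 504 CPM there.

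Of the 20 crest specifiers, 9 had a ratio of day 11 over day 6 Sox10 cells whose interval lay below 1, 4 (*Sox10*, *Sox5*, *Zic1* and *Lmo4*) one that lay above 1, and 7 one that held 1. How many of all features had an interval that left out 1 was not counted, so these counts have no background beside them. *Msx2*, a homeobox target of BMP signalling, was at 81.6 CPM at day 6 and 2.85 at day 11, and *Twist1* at 99.2 and 15.7, a ratio of 0.16 (0.10 to 0.25). *Snai2* was at 16.0 and 2.85 CPM, *Tfap2b* at 43.2 and 10.7 and *Sox9* at 65.6 and 30.6 CPM. Part of these levels came from the 16 day 6 cells with a single *Sox10* UMI, 3 of which held *Foxd3*. In the 24 day 6 cells with at least 2 *Sox10* UMIs, *Snai2* was at 6.63, *Sox9* at 43.9 and *Twist1* at 75.4 CPM, while *Msx2* was at 104 and *Tfap2b* at 58.0 CPM. *Zic1* was at 5.87 and 22.1 CPM at days 6 and 11, a ratio of 3.77 (1.84 to 8.30) that includes the single cell named above. *Foxd3* was close at both days, 68.8 and 76.3 CPM, with a ratio of 1.11 (0.85 to 1.44). *Sox10* was at 77.9 and 227 CPM, a ratio of 2.91 (2.39 to 3.57). In the remaining cells of both libraries *Msx2* was at 6.45 and 2.41 CPM and *Twist1* at 163 and 105, also lower at day 11. *Snai2* (34.3 and 32.3 CPM) and *Sox9* (37.3 and 36.2) were close there on both days. *Tfap2b* (1.61 and 10.6 CPM) and *Zic1* (7.12 and 28.1) were higher there at day 11.

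Of the 30 glial genes, 18 had a ratio of day 11 over day 6 with an interval above 1, 1 (*Pmp22*, 29.9 and 8.55 CPM) one below 1 and 4 one that held 1, and 7 had no UMI on at least 1 of the days. Of 31 receptors the counts were 14 above, 1 below (*Fgfr1*, 39.5 and 22.8 CPM), 11 that held 1 and 5 without a ratio. For these lists too, the count over all features was not made. *Erbb3* was at 39.5 and 77.7 CPM at days 6 and 11. *Cdh19* was at 2.67 and 29.2 CPM, a ratio of 11.0 (4.33 to 35.5), *Insc* at 5.33 and 57.0, *Itga4* at 4.80 and 118, and *Postn* at 16.5 and 160 CPM. *Ednrb* was at 40.0 and 305 CPM, a ratio of 7.63 (5.95 to 9.88), and *Gfra1* at 2.67 and 67.0 CPM. *Npy* and *Kcna1* had no UMI at day 6 and were at 74.1 and 24.9 CPM at day 11. *Dlx2* was at 36.8 and 28.5 CPM, while *Dlx1* was at 14.4 and 58.4. In *Hox* genes, *Hoxc9* was at 123 CPM on both days and *Hoxb9* at 243 and 154 CPM. Several of these genes also differed between the remaining cells of both libraries. There *Postn* was at 5.13 and 58.8 CPM at days 6 and 11, *Fabp7* at 29.5 and 243, *Itga4* at 2.90 and 11.3, *Gfra1* at 1.80 and 9.23 and *Npy* at 0.156 and 3.73 CPM. *Ednrb* was at 21.2 and 54.5 CPM there and *Erbb3* at 0.787 and 1.93. At low levels, *Dlx1* (0.251 and 0.974), *Insc* (0.0782 and 0.504) and *Cdh19* (0.0112 and 0.0477 CPM) were also higher at day 11. A higher level at day 11 was thus not particular to the Sox10 cells for these genes.

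**Figure D5:**
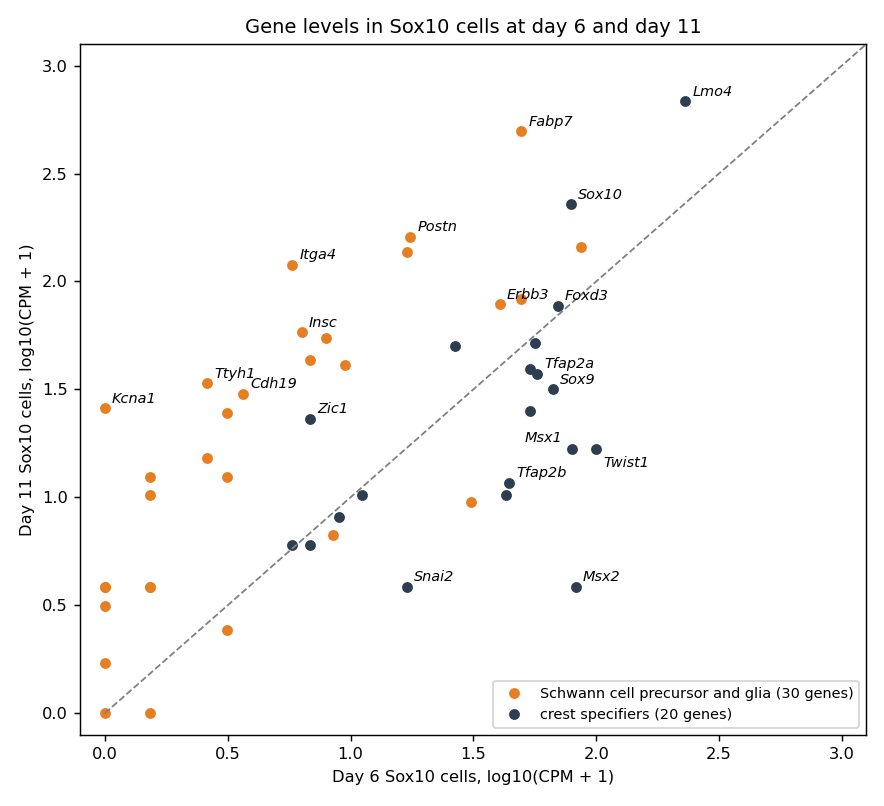
Level of the 30 Schwann cell precursor and glia genes (orange) and the 20 crest specifiers (dark) in Sox10 cells of day 6 (x axis) and day 11 (y axis), as log10 of CPM plus 1, 1 library per day. The dashed line marks equal levels, with *Fabp7*, *Itga4* and *Postn* above it, *Msx2*, *Twist1* and *Snai2* below it and *Foxd3* close to it.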

How the data were processed

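Single-cell RNA libraries of Zx1 gastruloids, 1 per day, were used as deposited. The authors deposited raw UMI counts of each gene in droplets already called as cells. The submitters' processing notes name Cell Ranger 3.1.0 and mm10, and the day 11 matrix header names Cell Ranger 6.0.1, so that day, library and software version cannot be told apart. Gated libraries held a median of 25335, 28400.5, 25581 and 12082 UMIs per cell at days 4, 5, 6 and 11 (149169498 UMIs in all deposited day 11 cells). No cell types were taken from an annotation and no doublets were removed.

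Cells needed 2000 UMIs and under 20% mitochondrial UMIs. UMIs were summed per group and scaled to CPM. Intervals were Poisson for CPM, Clopper-Pearson for shares and conditional binomial for ratios, all exact at 95%. No test was run, since each day had 1 library. The named genes were those of the fixed lists, the 20 highest and 10 lowest ratios with 10 CPM added, and the 8 highest against each set, ribosomal and mitochondrial genes left out. Thinning used 5000 UMIs and seed 11. The members, lists and comparisons were chosen with earlier results of these data known. Some listed genes are counted in the totals of their lists but are not reported here by name. Analyses ran in Python 3.11.15 with numpy 2.4.6, scipy 1.17.1 and pandas 2.3.3. Alternatives changed the depth and mitochondrial limits, the *Sox10* minimum, doublets, very deep cells, the added CPM, the fold and the thinning.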

Additional observations from a re-analysis of the deposited data

How the results depend on the processing

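With 1 library a day, counting error is the only error that could be measured, and rare genes of the 59 cells are limited by 1403193 UMIs. No paired analysis was possible because the labels number 1 sample for each day. Of 92 alternative values, 75 stayed within the spread or within 1.5 times the value reported and 17 moved. The number of Sox10 cells stayed within its interval under all 7 alternatives run for it. The *Foxd3* share of 67.8% was 29.3% when cells were thinned to 5000 UMIs and 46.4% at 10000. The 139 higher features became 221 with 5 CPM added, 33 with 50 added and 27 at a fold of 4. The 315 lower features became 622, 45 and 29 under these settings, 526 without cells over 40000 UMIs and 590 without the 6 Sox10 cells with over 1% cardiomyocyte UMIs, an alternative added after the data were seen. The 5 crest specifiers became 3 with 50 added and 3 at a fold of 4, and the 13 glial genes 4 and 4. The cause of each shift other than the change of limit itself was not tested. *Foxd3* was at 92.4 CPM without cells over 40000 UMIs and 94.9 without the 6 cells.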
